A study of Mus musculus with 6 samples.

Results

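The genes described here are 37 interferon-induced antiviral effectors, a list of known products of the cell's antiviral program, followed in cells sorted as horizontal basal cells (HBCs) of the mouse olfactory epithelium. They were found by symbol in the deposited expression table, taking the row of highest mean where several rows named a gene, and they occupied 36 of its 44519 rows. Ifit2 and Ifit3 share 1 merged row, and Ifitm3 shares a merged row with Ifitm6. The TNF group held 3 libraries (replicates 1, 3 and 4) of GFP-positive cells from mice of genotype Krt17-EGFP; Cyp2g1-rtTA; TRE-TNF given doxycycline for 6 weeks. The control group held 3 libraries (replicates 1, 2 and 4, and libraries are called by these numbers) of GFP-positive cells from Krt17-EGFP mice labelled as given no doxycycline. All the mice carry the Krt17-EGFP reporter by which the cells were sorted. Through rtTA made under the Cyp2g1 promoter, which is active in sustentacular cells and glands, doxycycline turns on the TNF transgene in the tissue around the HBCs. Transgenes and doxycycline differ together between the groups, so their effects cannot be told apart, and neither age nor sex is given in the labels. Nothing in the labels says whether each library came from 1 mouse, so p-values measure only the spread among these libraries.

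Interferons are secreted alarm proteins that bind receptors on nearby cells. Type I and type III interferons act on genes mainly through the interferon-stimulated response element (ISRE), and interferon gamma mainly through the gamma-activated site (GAS). The genes switched on in this way encode proteins that bind foreign RNA, block viral entry or release, degrade RNA or deplete nucleotides. In barrier epithelia such genes are known to be induced during infection and inflammation, and basal stem cells of several tissues are known to keep some of them on at rest.

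Levels are FPKM (fragments scaled to transcript length and to the size of the library), as the authors deposited them. How library size was set in that scaling is not given, and read depth is unknown. FPKM summed to between 688190 and 838417 in TNF libraries and to between 769766 and 837515 in control libraries. The HBC marker Trp63, a transcription factor of basal cells, averaged 97.2 ± 18.8 FPKM in TNF and 75.3 ± 9.43 FPKM in control libraries (SD, n = 3 each). The basal keratins Krt5, with 402 to 1011 FPKM in TNF and 151 to 344 FPKM in control libraries, and Krt14, in a row merged with Krt17, with 3645 to 5651 FPKM in TNF and 402 to 2265 FPKM in control libraries, did not pass (adjusted p = 0.110 and 0.0741). By the test given below, 4 of 12 HBC markers were called higher in TNF (33.3%, where 10.9% of all rows tested were). Another 1 was called lower, where 27.2% of all rows were. All 12 HBC markers together summed to 7721, 5198 and 4942 FPKM in TNF libraries 1, 3 and 4, against 2592, 3316 and 759 FPKM in control libraries 1, 2 and 4. Control replicate 4 stood apart from the other control libraries in that low sum and in the summed level of 16 macrophage and myeloid markers, which was 2327 FPKM, against 404 and 453 FPKM in control replicates 1 and 2 and 259 to 652 FPKM in TNF libraries. TNF replicate 1 stood apart from the other TNF libraries in fibroblast markers (8 genes, 73.4 FPKM in sum, against 1121 and 1600 FPKM) and in endothelial markers (8 genes, 4.11 FPKM in sum, against 92.4 and 145 FPKM). Its 8 mature olfactory neuron markers summed to 1088 FPKM, against 35.3 and 26.1 FPKM in TNF replicates 3 and 4 and 3131 to 6242 FPKM in control libraries. By control library 1, 2 and 4 the neuron sums were 3364, 3131 and 6242 FPKM, beside the HBC sums of 2592, 3316 and 759 FPKM. The control libraries thus held much RNA of cells other than HBCs. Tnf itself was at 142, 91.9 and 102 FPKM in TNF libraries 1, 3 and 4, against 7.63, 28 and 7.58 FPKM in control libraries 1, 2 and 4. In a bulk sample, fewer cells of a type and less RNA per cell cannot be told apart.

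Most of the antiviral effectors were higher in the TNF libraries, and 1 was lower. Of the 36 rows, 34 reached 1 FPKM in at least 3 libraries and were tested, and 22 of these rose while 1 fell (limma on log2(FPKM + 1), Benjamini-Hochberg adjusted p below 0.05, n = 3 per group). Over the 15037 rows tested in the whole table, 38.0% were called, 10.9% as higher and 27.2% as lower. The median log2 change of the 34 rows was 1.29, against −0.22 over all rows tested, on a log2(FPKM + 1) scale that understates the change of low genes. For the 12 HBC markers the median was 1.21, so a shift of this size was not particular to the effectors. Of the 22 rows that rose, 21 changed by at least 1 on the log2 scale, a size and call reached by 7.89% of all rows. In 26 of the 34 rows every TNF library lay above every control library, as it did in 16.8% of all rows tested. None of the 34 rows had passed the filter through the TNF libraries alone. Oas2 and Oas3 were not tested for lack of level.

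**Figure D1:**
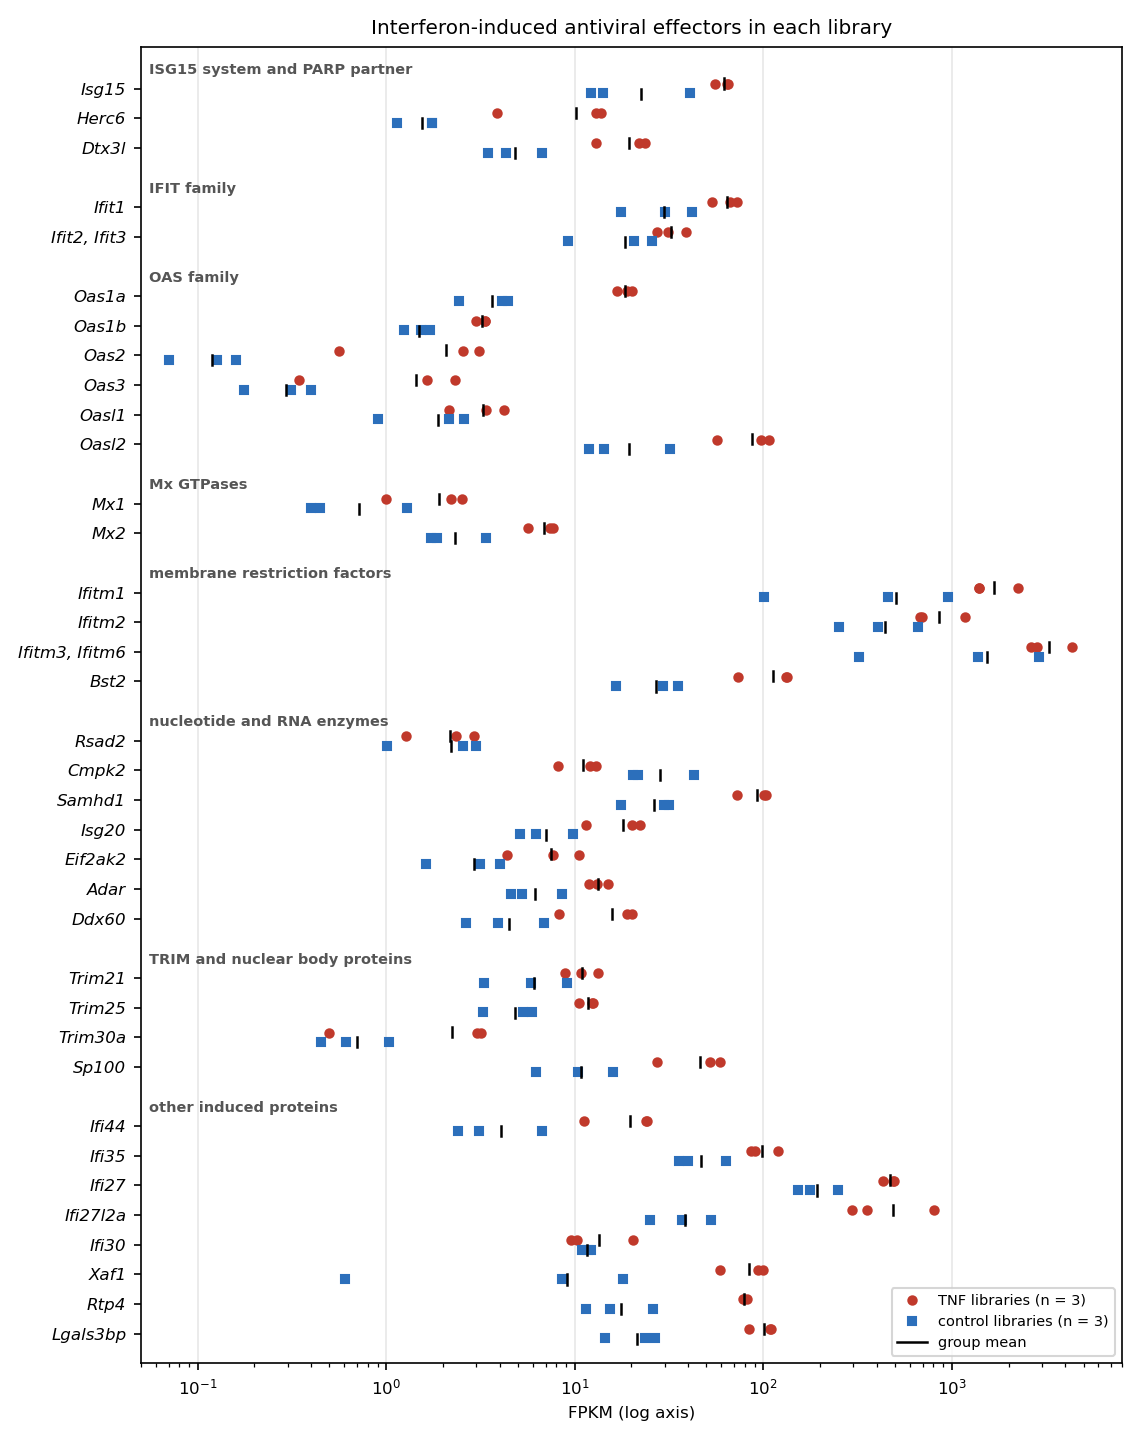
FPKM on a log axis for the 36 rows that hold the 37 antiviral effectors, grouped by role, with TNF libraries as red circles, control libraries as blue squares (3 each) and a black tick at each group mean. Red points lie to the right of all blue points for most rows, such as Rtp4 and Oas1a, while Cmpk2 shows the opposite order and Rsad2 overlaps.

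The size of this difference depended on the scale on which the libraries were set side by side. Scaled by median of ratios, 25 member rows rose and 0 fell, and after quantile normalization 27 rose and 1 fell. Those scalings put the median of all rows at −0.01 and 0.05, where it was −0.22 as deposited, and gave 2300 higher with 3257 lower rows and 2658 higher with 2867 lower rows over the whole table, where the deposited values gave 1635 and 4083. Scaled to the median of the 12 HBC markers, of which 4 were called higher and 1 lower, the median of all rows was −1.37, with 248 higher and 7709 lower rows. On that scale the median of the members was 0.18, and 2 rows (Ifi27l2a and Xaf1) rose while 1 (Cmpk2) fell. The statements below are on the deposited scale, and each effector called higher, other than Ifi27l2a and Xaf1, lost its call when scaled to the HBC markers. Leaving out control replicate 1 brought the count of rises to 14, and leaving out any other library brought it to between 15 and 25.

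**Figure D2:**
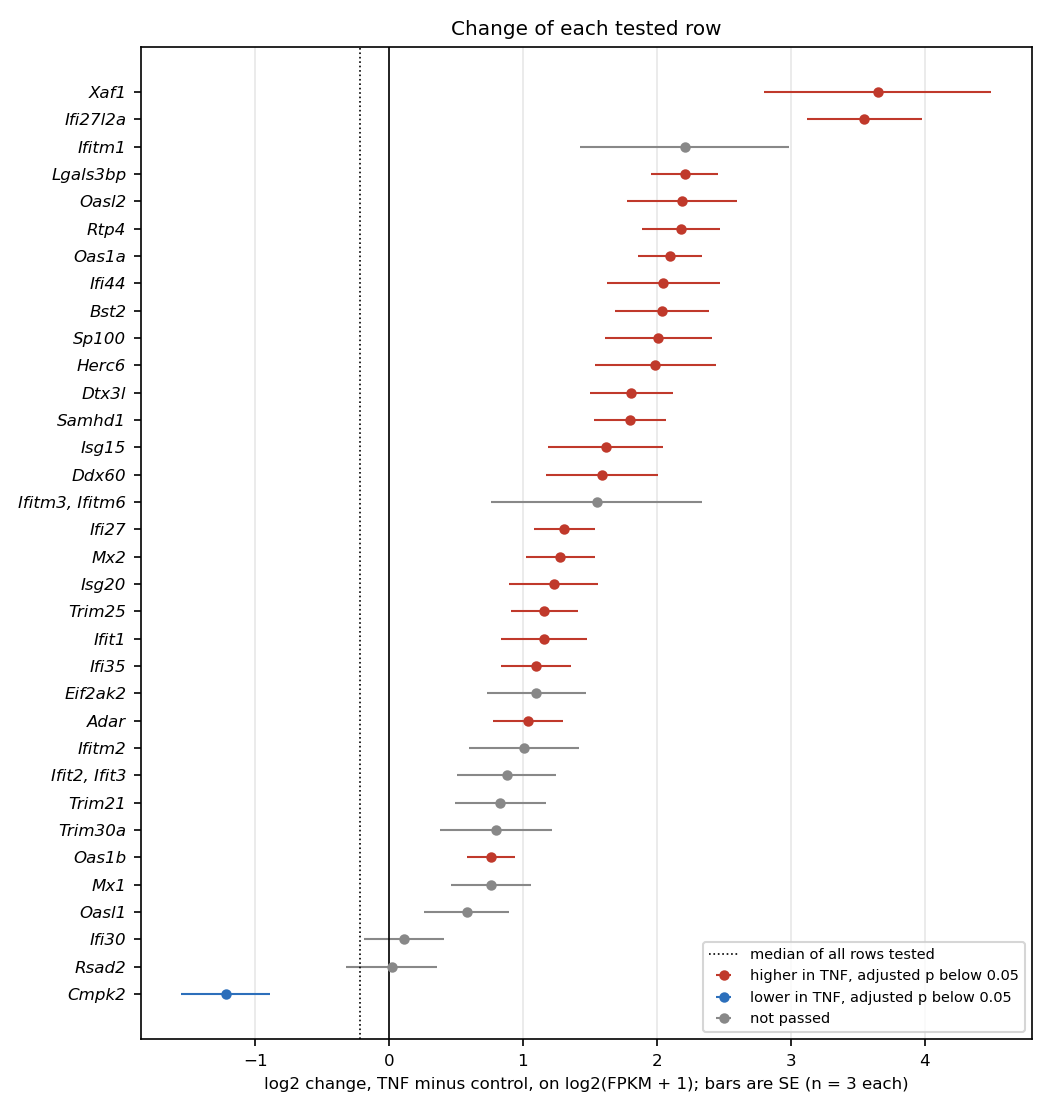
The log2 change, TNF minus control, of the 34 tested rows with its standard error, coloured by whether the row rose, fell or did not pass at an adjusted p of 0.05, with a dotted line at the median of all rows tested (−0.22). Xaf1 and Ifi27l2a have the highest values, 3.65 and 3.55, and Cmpk2 the lowest, −1.22.

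The promoters of 4 members are shown as examples: Isg15 and Ifit1 rose, Rsad2 did not pass the test, and Cmpk2 fell. They leave out larger rises such as those of Xaf1, Lgals3bp and Oasl2 (log2 change 3.65, 2.21 and 2.19), whose windows held no ISRE match. The 4 therefore cannot show how matches go with the change, and counts over all members with a window follow below. Each is the RefSeq window (GRCm38.p6) of 300 bases, from 250 bases before the annotated start to 50 bases from the start on, read along the gene's strand. Capitals mark matches to the ISRE letters (GAAA, any 2 bases, GAAA) on either strand. The windows are chr4:156200769-156201068 (minus strand) for Isg15, chr19:34640639-34640938 (plus) for Ifit1, chr12:26456403-26456702 (minus) for Rsad2 and chr12:26468965-26469264 (plus) for Cmpk2.
Isg15: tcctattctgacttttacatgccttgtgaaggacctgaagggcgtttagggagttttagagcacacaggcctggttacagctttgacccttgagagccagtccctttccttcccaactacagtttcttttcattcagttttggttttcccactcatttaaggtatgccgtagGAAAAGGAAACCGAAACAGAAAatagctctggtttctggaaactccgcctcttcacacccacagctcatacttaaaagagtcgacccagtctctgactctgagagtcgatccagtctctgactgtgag
Ifit1: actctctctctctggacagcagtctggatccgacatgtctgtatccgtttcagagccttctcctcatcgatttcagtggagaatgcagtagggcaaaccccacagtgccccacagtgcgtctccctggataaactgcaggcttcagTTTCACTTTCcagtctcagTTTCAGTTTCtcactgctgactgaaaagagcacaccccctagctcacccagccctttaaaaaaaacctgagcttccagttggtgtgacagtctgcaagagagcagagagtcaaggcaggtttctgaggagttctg
Rsad2: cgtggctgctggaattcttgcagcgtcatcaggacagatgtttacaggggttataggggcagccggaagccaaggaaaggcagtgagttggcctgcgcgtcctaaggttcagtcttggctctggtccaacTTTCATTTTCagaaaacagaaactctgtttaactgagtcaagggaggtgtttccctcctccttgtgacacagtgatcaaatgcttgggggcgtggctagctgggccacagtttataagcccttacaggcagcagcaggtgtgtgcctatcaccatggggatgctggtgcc
Cmpk2: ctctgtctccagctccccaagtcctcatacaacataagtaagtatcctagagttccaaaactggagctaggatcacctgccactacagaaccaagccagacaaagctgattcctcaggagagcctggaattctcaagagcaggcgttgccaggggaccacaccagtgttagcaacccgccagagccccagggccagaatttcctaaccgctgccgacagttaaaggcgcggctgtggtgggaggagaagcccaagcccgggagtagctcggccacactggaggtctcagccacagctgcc
The Isg15 window held 3 overlapping matches between −78 and −57, where 0 is the first transcribed base. The Ifit1 window held 2 separate matches, starting at −104 and −85. The Rsad2 window held 1 match, starting at −120, and the Cmpk2 window held none.

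Promoter windows were given for 30 of the 37 members. An ISRE match stood in the window of 13 of the 30 (43.3%), against 3.99% of the 27025 genes with a window. The GAS letters TTCNNNGAA, searched on both strands, stood in 9 of the 30 (30%), against 9.55% of all genes, and the kappa-B letters (GGGA, any base, TTTCC, on both strands) in 0 of the 30, against 0.466%. With so small a share over all genes, 0 of 30 cannot show a lack of kappa-B sites. Kappa-B sites with other letters were not searched for. GAS and ISRE matches overlapped in the windows of Bst2 and Ifitm3. Of the 13 members with an ISRE match, 12 were tested, 5 rose and 0 fell, with a median log2 change of 1.13. Of the 17 members with a window and no ISRE match, 12 rose and 1 fell, with a median of 1.80. Over all rows tested, 10.9% rose and 27.2% fell. Ifit3 and Ifit2 share a row that counts in both sets. These counts describe letters in short windows and were not tested, and a window with no match says nothing of sites elsewhere. Oas1b, Oas2, Mx1, Mx2, Ifi27, Ifi27l2a and Rtp4 had no window in the table.

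**Figure D3:**
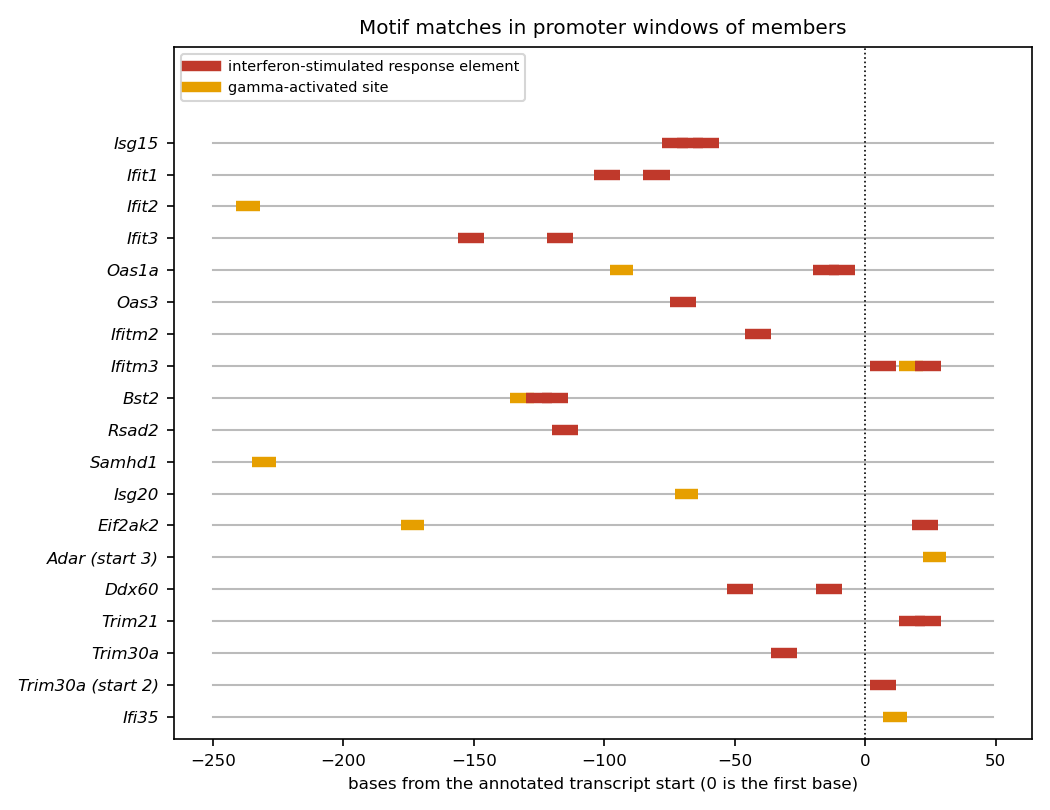
Positions of ISRE matches (red) and GAS matches (orange) in the promoter windows of the members that held either, in bases from the annotated transcript start, with a grey line for each 300-base window. The matches of Isg15 lie between −78 and −57, while those of Ifitm3, Eif2ak2 and Trim21 include matches after the start.

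Of the ISG15 system, Isg15 and Herc6 were both called higher, and so was Dtx3l, a partner of Parp9 listed with them. Isg15 (chromosome 4, 156199424 to 156200818, mm10) encodes a ubiquitin-like protein that is secreted and also attached to other proteins. It was at 55.6, 64.3 and 64.9 FPKM in TNF libraries 1, 3 and 4, against 14.2, 40.8 and 12.2 FPKM in control libraries 1, 2 and 4. The groups did not overlap, and control replicate 2 was the highest control. The log2 change was 1.62 ± 0.43 (SE, adjusted p = 0.0246). Herc6, which in the mouse encodes the main ligase that attaches Isg15, was at 3.89, 13.7 and 13.0 FPKM in TNF libraries 1, 3 and 4, against 1.14, 1.76 and 1.74 FPKM in control libraries 1, 2 and 4. TNF replicate 1 lay between the controls and the other TNF libraries, and the log2 change of Herc6 was 1.99 ± 0.45 (adjusted p = 0.0136). Dtx3l, a ubiquitin ligase that works as a pair with Parp9, had 13.0 to 23.6 FPKM in TNF libraries and 3.45 to 6.74 FPKM in control libraries and rose by 1.81 ± 0.31 (adjusted p = 0.00499), though its exons overlap those of Parp9 in the annotation. The Isg15 call was lost without TNF replicate 3 or 4 or control replicate 1 or 4 (adjusted p = 0.0713 to 0.0863), and that of Herc6 without control replicate 1 (adjusted p = 0.0534).

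The IFIT proteins bind viral RNA that lacks the cap marks of host messages. Ifit1 was at 53.7, 66.9 and 72.6 FPKM in TNF libraries 1, 3 and 4, against 17.5, 41.8 and 30.0 FPKM in control libraries 1, 2 and 4. The groups did not overlap, and its log2 change was 1.16 ± 0.32 (adjusted p = 0.0273). The merged row of Ifit2, which can promote cell death, and Ifit3, which binds and steadies Ifit1, was at 27.2, 31.4 and 38.8 FPKM in TNF libraries, against 9.22, 25.6 and 20.7 FPKM in control libraries. Its groups did not overlap either, but the log2 change of 0.88 ± 0.37 did not pass (adjusted p = 0.106). Both genes lie with Ifit1 in a cluster of related copies on chromosome 19, so reads may be split among them. The Ifit1 call was lost without TNF replicate 3 or 4 or control replicate 1 or 4 (adjusted p = 0.0527 to 0.0885).

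The OAS enzymes sense double-stranded RNA and make a short oligoadenylate messenger that switches on RNase L, which then degrades RNA. Their 6 members, all on chromosome 5, differed widely in level: by FPKM, which is per length, Oasl2 averaged 87.1 ± 26.6 FPKM in TNF libraries and 19.4 ± 10.9 FPKM in control libraries (SD, n = 3 each), while Oas3 averaged 1.44 ± 1.0 FPKM in TNF libraries and 0.295 ± 0.112 FPKM in control libraries. Oas1a (chromosome 5, 120896256 to 120907521) was at 18.9, 20.1 and 16.7 FPKM in TNF libraries 1, 3 and 4, against 2.45, 4.09 and 4.42 FPKM in control libraries 1, 2 and 4. The 3 TNF libraries were close together and far above the controls, with a log2 change of 2.1 ± 0.24 (adjusted p = 0.00113). Oasl2, an OAS-like protein that keeps synthetase activity in the mouse, rose by 2.19 ± 0.41 (adjusted p = 0.00646). Oas1b, whose full-length form protects wild mice from flaviviruses, rose by 0.76 ± 0.18 (adjusted p = 0.0161), at low levels of 2.99 to 3.36 FPKM in TNF libraries and 1.25 to 1.71 FPKM in control libraries. The Oas1b call was lost without TNF replicate 3 or 4 or control replicate 1 (adjusted p = 0.0565 to 0.0705), and Oas1a and Oas1b belong to a tandem family whose reads may be shared.

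The other OAS genes were low. Oas2 was at 0.558, 2.55 and 3.12 FPKM in TNF libraries 1, 3 and 4, against 0.0708, 0.127 and 0.159 FPKM in control libraries 1, 2 and 4. Its neighbour Oas3 was at 0.346, 2.31 and 1.65 FPKM in the same TNF libraries, against 0.311, 0.176 and 0.399 FPKM in controls. Oas3 in TNF replicate 1 thus lay within the control range, while in TNF replicates 3 and 4 it was above it. Oasl1, which in mice limits production of Irf7 protein, was at 2.15, 4.21 and 3.38 FPKM in TNF libraries, against 0.906, 2.15 and 2.59 FPKM in control libraries, and did not pass (log2 change 0.58 ± 0.32, adjusted p = 0.197).

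The Mx proteins are dynamin-like GTPases that trap viral components, Mx1 in the nucleus and Mx2 in the cytoplasm of mouse cells. Mx2 was at 5.64, 7.38 and 7.70 FPKM in TNF libraries 1, 3 and 4, against 1.72, 3.39 and 1.85 FPKM in control libraries 1, 2 and 4, and rose by 1.28 ± 0.26 (adjusted p = 0.00962). Mx1 was near the detection filter, at 0.991, 2.2 and 2.53 FPKM in TNF libraries, against 0.399, 1.30 and 0.447 FPKM in control libraries. The Mx1 groups overlapped through TNF replicate 1 and control replicate 2, and its log2 change of 0.76 ± 0.30 did not pass (adjusted p = 0.0932). Without TNF replicate 1 Mx1 passed (adjusted p = 0.0269), an omission that took the rows higher over the whole table from 1635 to 2205. Without TNF replicate 3 or 4 its adjusted p was 0.237 and 0.258.

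Membrane restriction factors held the most abundant members, and only Bst2 passed among the 4. Bst2, or tetherin, holds newly made virions at the cell surface. Its level was 73.7, 132 and 134 FPKM in TNF libraries 1, 3 and 4, against 16.5, 35.1 and 29.5 FPKM in control libraries 1, 2 and 4 (log2 change 2.04 ± 0.35, adjusted p = 0.00473). The IFITM proteins stiffen membranes against viral fusion, Ifitm3 mainly in endosomes. Ifitm1 was at 2243, 1397 and 1396 FPKM in TNF libraries, against 457, 958 and 101 FPKM in control libraries. All TNF libraries were higher, but the controls were scattered, and the log2 change of 2.21 ± 0.78 did not pass (adjusted p = 0.0655). The Ifitm3 and Ifitm6 row was at 4338, 2849 and 2641 FPKM in TNF libraries, against 1384, 2899 and 322 FPKM in control libraries. Its groups overlapped through control replicate 2 (log2 change 1.55 ± 0.79, adjusted p = 0.168). Ifitm2 was at 1182, 675 and 697 FPKM in TNF libraries, against 405, 664 and 252 FPKM in control libraries, and did not pass either (1.01 ± 0.41, adjusted p = 0.0986).

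In the control libraries all 3 IFITM rows had the order replicate 2, then 1, then 4, and in the TNF libraries all 3 were highest in replicate 1. The summed HBC markers had the same order in the controls (3316, 2592 and 759 FPKM) and were also highest in TNF replicate 1 (7721 FPKM). Whether that has a part in these levels was not tested. Without control replicate 2, Ifitm1 and Ifitm2 passed (adjusted p = 0.0249 and 0.0454), and both passed after median-of-ratios scaling (adjusted p = 0.0474 and 0.0489). The 3 genes are close relatives and their locus on chromosome 7 holds 6 rows in the table, so reads may be split among them.

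Cmpk2 and Rsad2, neighbours on chromosome 12 that are transcribed away from each other with 12751 bases between them, did not rise. Rsad2 encodes viperin, which turns a nucleotide into a chain terminator of viral RNA, and Cmpk2 encodes a mitochondrial nucleotide kinase. Cmpk2 was at 8.2, 12.9 and 12.1 FPKM in TNF libraries 1, 3 and 4, against 20.3, 21.6 and 43.0 FPKM in control libraries 1, 2 and 4. It was the 1 member whose TNF libraries all lay below the controls, as they did in 36.2% of all rows tested, and it fell by 1.22 on the log2 scale (SE 0.33, adjusted p = 0.0264). Its highest level was in control replicate 4, the library with 2327 FPKM of summed myeloid markers, whose part was not tested. Without control replicate 4 the fall still passed. Without TNF replicate 1, 3 or 4 it did not (adjusted p = 0.0505 to 0.0608), nor after median-of-ratios scaling, with a log2 change of −1.0 (adjusted p = 0.0597). Rsad2 was at 1.27, 2.35 and 2.92 FPKM in TNF libraries, against 1.01, 2.57 and 3.01 FPKM in control libraries, with overlapping ranges (log2 change 0.02 ± 0.34, adjusted p = 0.973).

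Of the other 5 enzymes that act on nucleotides and RNA, 4 rose, where 10.9% of all rows tested rose. Samhd1, which hydrolyses the building blocks of DNA, was at 72.4, 101 and 103 FPKM in TNF libraries 1, 3 and 4, against 17.6, 29.7 and 31.5 FPKM in control libraries 1, 2 and 4. The groups were far apart, with a log2 change of 1.80 ± 0.27 (adjusted p = 0.00273). The RNA exonuclease Isg20 averaged 18.0 ± 5.70 FPKM in TNF and 7.04 ± 2.40 FPKM in control libraries (adjusted p = 0.0248). Adar, which edits adenosines in double-stranded RNA and so hides host RNA from sensors, averaged 13.3 ± 1.56 FPKM in TNF and 6.15 ± 2.16 FPKM in control libraries (adjusted p = 0.0195), with exons that overlap those of Chrnb2. Ddx60, a helicase-like cofactor of RNA sensing, averaged 15.8 ± 6.57 FPKM in TNF and 4.5 ± 2.18 FPKM in control libraries (adjusted p = 0.0252). Each of these averages is a mean ± SD of 3 libraries. The calls of Isg20 and Ddx60 were lost without TNF replicate 3 or 4 or control replicate 1 or 4 (adjusted p = 0.0696 to 0.0923), and that of Adar without TNF replicate 3 or 4 or control replicate 1 (adjusted p = 0.0636 to 0.0798). Eif2ak2, the kinase PKR that halts translation on sensing double-stranded RNA, was at 4.35, 10.6 and 7.66 FPKM in TNF libraries, against 4.03, 3.14 and 1.63 FPKM in control libraries. Its log2 change of 1.10 ± 0.37 did not pass (adjusted p = 0.0583), but it passed without TNF replicate 1 (adjusted p = 0.0185). That omission took the rows higher over the whole table from 1635 to 2205. Without TNF replicate 3 or 4 the adjusted p of Eif2ak2 was 0.178 and 0.147.

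Among the TRIM ligases and the nuclear body protein Sp100, 2 of 4 rose, where 10.9% of all rows tested rose. Trim25, a ubiquitin ligase of the RNA sensing pathway, was at 10.5, 12.5 and 12.4 FPKM in TNF libraries 1, 3 and 4, against 5.33, 5.95 and 3.26 FPKM in control libraries 1, 2 and 4 (log2 change 1.16 ± 0.25, adjusted p = 0.0109). Sp100, a scaffold of nuclear bodies that repress viral genomes, was at 27.4, 59.0 and 52.2 FPKM in TNF libraries, against 6.21, 10.4 and 15.9 FPKM in control libraries (2.01 ± 0.40, adjusted p = 0.00849). Both had groups that did not overlap. Trim21, a receptor for antibody-bound virus in the cytosol, overlapped between groups (8.91 to 13.2 FPKM in TNF and 3.31 to 9.11 FPKM in control libraries, adjusted p = 0.102), and passed without control replicate 2 (adjusted p = 0.0422). Trim30a, which in mice restrains inflammatory signalling, had 0.499, 3.04 and 3.17 FPKM in TNF libraries, against 0.453, 0.615 and 1.03 FPKM in control libraries, so that TNF replicate 1 overlapped the controls. It did not pass (log2 change 0.80 ± 0.42, adjusted p = 0.177), but passed without TNF replicate 1 (adjusted p = 0.00533). That omission took the rows higher over the whole table from 1635 to 2205. Without TNF replicate 3 or 4 the adjusted p of Trim30a was 0.418 and 0.421.

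The remaining 8 members include the largest rises, and 7 of the 8 rose, where 10.9% of all rows tested rose. Ifi27l2a (chromosome 12, 103442167 to 103443680), a small membrane protein of the ISG12 family, was at 808, 353 and 296 FPKM in TNF libraries 1, 3 and 4, against 25.2, 37.1 and 52.7 FPKM in control libraries 1, 2 and 4. Its mean was 12.7 times the control mean, and the log2 change was 3.55 ± 0.43 (adjusted p = 0.00144). Its relative Ifi27, 1927 bases away, was at 494, 490 and 433 FPKM in TNF libraries, against 153, 178 and 249 FPKM in control libraries (1.31 ± 0.23, adjusted p = 0.00475). Ifi27 was thus the more abundant of the pair in each control library, while in TNF replicate 1 Ifi27l2a was.

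Xaf1, which counters the caspase inhibitor XIAP, was at 59.1, 99.5 and 94.2 FPKM in TNF libraries 1, 3 and 4, against 8.52, 18.1 and 0.608 FPKM in control libraries 1, 2 and 4. The low value of control replicate 4 widened its error, and the log2 change was 3.65 ± 0.85 (adjusted p = 0.0157), a call lost without TNF replicate 3 (adjusted p = 0.0530). Without control replicate 4 its log2 change was 2.62, and without control replicate 2 it was 4.41. Lgals3bp, a secreted glycoprotein that binds galectin 3, was at 84.2, 110 and 108 FPKM in TNF libraries, against 14.5, 23.5 and 26.6 FPKM in control libraries (2.21 ± 0.25, adjusted p = 0.00115). Rtp4, a chaperone of receptors on their way to the membrane, was at 77.7, 78.6 and 81.8 FPKM in TNF libraries, against 11.4, 26.0 and 15.4 FPKM in control libraries (2.18 ± 0.29, adjusted p = 0.00176). The TNF libraries were close together for Rtp4, whose exons overlap those of Gm45338. Reads of overlapping genes may also be mixed in Herc6, Oasl1, Ifitm2, Eif2ak2, Sp100, Ifi35 and Ifi30. Ifi44 had 11.1, 23.9 and 24.1 FPKM in TNF libraries, against 2.39, 6.71 and 3.12 FPKM in control libraries, and rose by 2.05 ± 0.42 (adjusted p = 0.00952). Ifi35, a partner of the signalling protein Nmi, had 85.7 to 119.8 FPKM in TNF libraries and 35.6 to 63.8 FPKM in control libraries and rose by 1.10 ± 0.26 (adjusted p = 0.0159), a call lost without control replicate 1 (adjusted p = 0.0620). Ifi30, the lysosomal thiol reductase of antigen-presenting cells, was at 20.4, 10.3 and 9.61 FPKM in TNF libraries, against 10.9, 11.8 and 12.2 FPKM in control libraries, and did not pass (0.11 ± 0.30, adjusted p = 0.792). Without TNF replicate 1 its log2 change was −0.21.

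The members did not behave alike across the TNF libraries. In 27 of the 36 rows TNF replicate 1 was the lowest of the 3 TNF libraries, and in 8 it was the highest. The share over all rows was not computed, so these counts may not be particular to the effectors. Over all rows tested, TNF replicate 1 correlated at 0.912 and 0.909 with replicates 3 and 4, which correlated at 0.983 with each other. The difference of TNF replicate 1 from the mean of replicates 3 and 4, on the log2(FPKM + 1) scale, was −1.55 for Herc6, −1.45 for Trim30a, −1.30 for Oas2, −1.15 for Ddx60 and −1.14 for Oas3. At the other end it was 1.32 for Ifi27l2a, 0.97 for Ifi30, 0.78 for Ifitm2 and 0.68 for Ifitm1. TNF replicates 3 and 4 differed by at most 0.42 in size at any member, that value being at Eif2ak2. TNF replicate 1 was also the TNF library with low fibroblast and endothelial markers (73.4 and 4.11 FPKM in sum) and the highest HBC markers (7721 FPKM), whose part in these differences was not tested. The median level of the 34 tested rows, relative to the control mean, was 1.17, 1.48 and 1.38 log2 units in TNF replicates 1, 3 and 4, against −0.27, 0.44 and −0.11 in control replicates 1, 2 and 4. Control replicate 2 was the highest control in 22 of the 36 rows, a count also without its share over all rows.

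**Figure D4:**
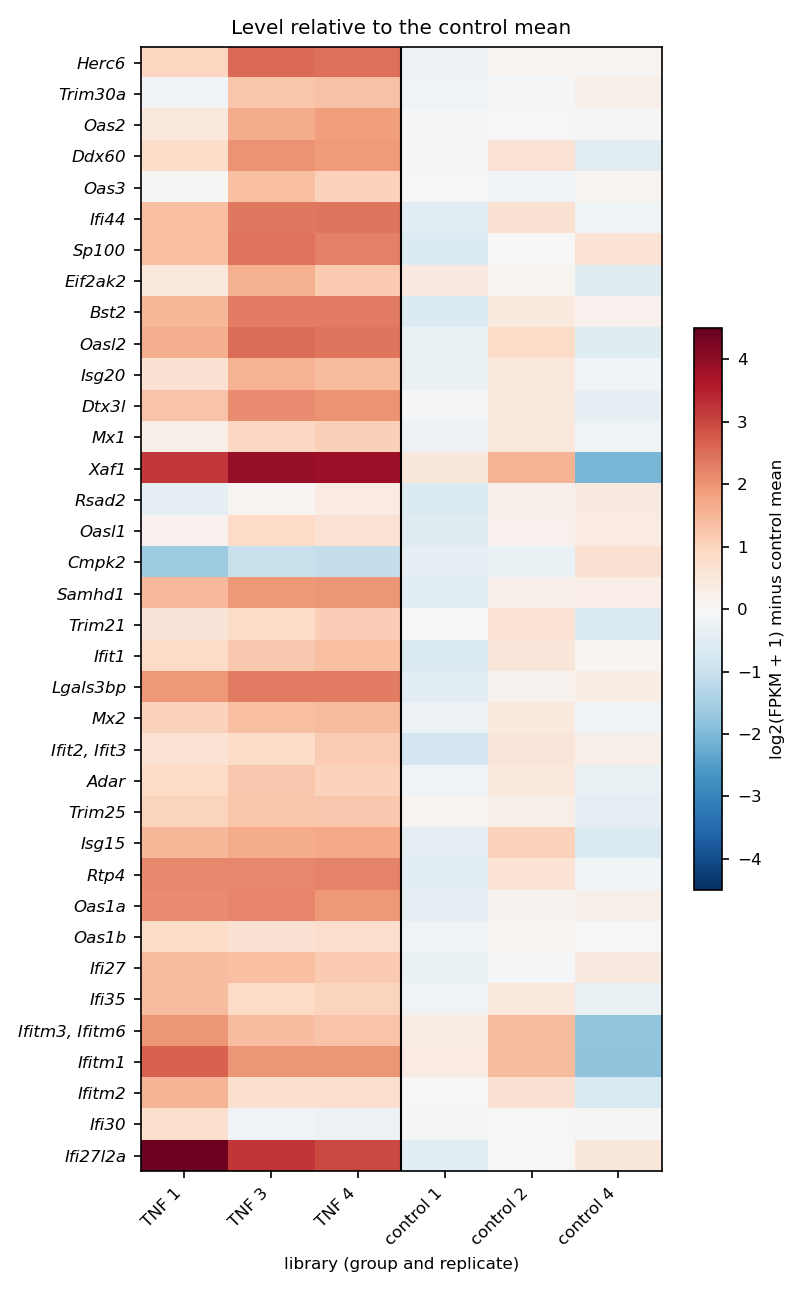
Level of each of the 36 rows in each library as log2(FPKM + 1) minus the mean of the control libraries, TNF libraries left and control libraries right, with rows ordered by the difference of TNF replicate 1 from TNF replicates 3 and 4. Herc6 and Trim30a at the top are paler in TNF replicate 1 (−1.55 and −1.45), and Ifi27l2a at the bottom is darker there (1.32).

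The markers of other cell types were read beside the effectors. Among the 16 markers of macrophages and myeloid cells none was called higher and 11 were called lower (limma), where 27.2% of all rows tested were called lower. Their summed level was 652, 259 and 347 FPKM in TNF libraries 1, 3 and 4, against 404, 453 and 2327 FPKM in control libraries 1, 2 and 4. Of 6 tested T and NK cell markers 0 rose and 5 fell, with sums of 8.09 to 12.0 FPKM in TNF libraries and 26.6 to 110 FPKM in control libraries. The most abundant of these markers were Lyz2 (log2 change 0.08 ± 0.56) and Ctss (−0.66 ± 0.91) for myeloid cells, which did not pass, and Trac (−2.72 ± 0.50), which fell, and Lck (−0.64 ± 0.40), which did not pass, for T and NK cells. Of 7 tested B and plasma cell markers 0 rose and 4 fell, but their summed level was 648, 574 and 434 FPKM in TNF libraries, against 100.5, 128 and 951 FPKM in control libraries. The antibody genes made up most of that sum. Igkc was at 379, 335 and 256 FPKM in TNF libraries, against 45.9, 55.2 and 554 FPKM in control libraries. Ighm was at 197, 186 and 140.2 FPKM in TNF libraries, against 28.5, 39.5 and 269.6 FPKM in control libraries. Jchain, the joining chain of secreted antibodies, was at 67.4, 48.7 and 34.3 FPKM in TNF libraries, against 0.218, 0.0769 and 105 FPKM in control libraries. For these 3 genes every TNF library lay above control replicates 1 and 2 and below control replicate 4, and none passed (adjusted p = 0.239, 0.228 and 0.179). The part of any of these cells in the rise of the effectors was not tested.

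Plasmacytoid dendritic cells, known as strong producers of type I interferon, were looked for through 9 markers, of which 3 reached the filter. Their defining gene Siglech was at 0.413, 0.0390 and 0.0565 FPKM in TNF libraries, against 0.212, 0.653 and 0.840 FPKM in control libraries, and Tlr9 was listed at 0 in all TNF libraries and in control replicates 1 and 2, with 0.0563 FPKM in control replicate 4. Ccr9, also below the test filter, was at 0.916, 1.45 and 0.927 FPKM in TNF libraries, against 0.443, 0.515 and 0.495 FPKM in control libraries, without overlap. Of that list Spib, whose row is merged with Mybpc2, and Ly6d rose, genes that epithelial cells can also express, and their log2 changes were 3.64 ± 0.45 and 3.49 ± 0.27 (adjusted p = 0.00148 and 0.000420).

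Of the non-leukocyte lists, the 8 mature olfactory neuron markers all fell, Stoml3 with a log2 change of −5.56 ± 1.49 and S100a5 with −6.33 ± 1.70. Over all rows tested, 27.2% were called lower and 10.9% higher. Of 7 tested sustentacular and gland markers 0 rose and 3 fell, namely Cyp2g1, whose promoter drives the transgene system, with a log2 change of −6.22 ± 1.13, Sec14l3 with −2.90 ± 0.53 and Ermn with −1.59 ± 0.37. Of 7 tested fibroblast markers 1 rose (14.3%, near the 10.9% of all rows), namely Fbln1, by 1.65 ± 0.26 (adjusted p = 0.00325), and 0 fell. Of 5 tested endothelial markers 0 rose and 0 fell. In the fibroblast list Dcn and Col3a1, in the endothelial list Egfl7 and Pecam1, and in the sustentacular and gland list Ugt2a1 and Cyp2a5 were the most abundant, and these 6 genes did not pass. Col3a1 had 0.707, 218 and 330.1 FPKM in TNF libraries 1, 3 and 4, and Pecam1 had 0.512, 23.0 and 36.8 FPKM, so that both were lowest in TNF replicate 1.

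Transcripts of the interferons themselves were at or near 0 in these sorted cells, other than Ifng in control replicate 4. Cells of the tissue outside the sort were not measured. Of 21 interferon genes with a row, 16 were listed at 0 in all 6 libraries and 0 reached the filter. Ifnb1 was listed at 0 in all TNF libraries, against 0.733, 0.299 and 0.129 FPKM in control libraries 1, 2 and 4. Ifng stood at 0.0601, 0 and 0.0493 FPKM in TNF libraries 1, 3 and 4, against 0.394, 0.282 and 9.03 FPKM in control libraries 1, 2 and 4, the last being the library with the highest T and NK cell markers (110 FPKM in sum). The type III genes Ifnl2 and Ifnl3 were below 0.4 FPKM in every library where they were not listed at 0, reaching 0.131 and 0.311 FPKM in TNF libraries, and they were listed at 0 in every control library.

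Receptors and signal transducers of the pathway rose in 10 of 17 tested rows, and 0 fell, against 10.9% of all rows that rose. Ifngr1, a chain of the interferon gamma receptor, was at 77.9, 108 and 116 FPKM in TNF libraries 1, 3 and 4, against 31.1, 37.1 and 44.5 FPKM in control libraries 1, 2 and 4 (log2 change 1.39 ± 0.22, adjusted p = 0.00323). Ifnar1, a chain of the type I receptor, was at 19.8, 25.1 and 27.6 FPKM in TNF libraries, against 16.5, 20.3 and 12.8 FPKM in control libraries, and did not pass (0.53 ± 0.23, adjusted p = 0.108). Stat2, a transducer of type I and type III interferon signals, rose by 0.88 ± 0.27 (adjusted p = 0.0415), a call lost without TNF replicate 3 or 4 or control replicate 1 or 2 (adjusted p = 0.0583 to 0.142). Irf9, merged with Rnf31, rose by 1.13 ± 0.17 (adjusted p = 0.00296), Irf7, which amplifies interferon production, by 2.13 ± 0.26 (adjusted p = 0.00147), and Stat3 by 1.91 ± 0.16 (adjusted p = 0.000476). Scaled to the HBC markers, the calls of Ifngr1, Stat2, Irf9, Irf7 and Stat3 were all lost (adjusted p = 0.206 to 0.869), with log2 changes of 0.12, −0.35, −0.13, 0.90 and 0.63.

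Brakes, sensors and GTPases of the same program were measured beside the effectors. Of 9 brakes on interferon signalling 5 rose and 2 fell, where 10.9% of all rows tested rose and 27.2% fell, so the count of falls is near that of the whole table. Usp18, which removes Isg15 from proteins and blocks the type I receptor, was at 23.2, 48.3 and 46.2 FPKM in TNF libraries 1, 3 and 4, against 6.22, 10.5 and 18.5 FPKM in control libraries 1, 2 and 4. It rose by 1.71 ± 0.43 (adjusted p = 0.0212), a call lost without TNF replicate 3 or 4 or control replicate 1 or 2 (adjusted p = 0.0593 to 0.0753). Socs1, an inhibitor of Jak kinases, and Nlrc5, better known for driving class I antigen genes, rose by 1.43 ± 0.24 and 2.06 ± 0.26. Ptpn6, a phosphatase, and Trim24 fell, with log2 changes of −1.26 ± 0.23 and −1.14 ± 0.17. Of 11 tested nucleic acid sensor genes 5 rose, against the same 10.9%, and 0 fell. Tmem173, which encodes STING, rose by 3.15 ± 0.25 and Zbp1 by 2.83 ± 0.29, and Dhx58 and Ifih1 of the RNA helicase family by 1.48 ± 0.24 and 1.09 ± 0.28. Scaled to the HBC markers, the rises of Usp18, Socs1, Nlrc5, Dhx58 and Ifih1 did not pass (adjusted p = 0.0640 to 0.868), and those of Tmem173 and Zbp1 did (adjusted p = 0.0178 and 0.0331). The Ifih1 call was also lost without TNF replicate 3 or 4 or control replicate 1 or 4 (adjusted p = 0.0558 to 0.0843).

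The guanylate binding proteins and immunity GTPases, which attack the membranes around intracellular pathogens, rose in 10 of 11 tested rows and fell in 0. Over all rows tested, 10.9% rose. The median log2 change of the GTPase list was 2.86, against 1.29 for the antiviral effectors. That difference between the lists was not tested. Among the rows with the smallest p, that of Ifi47 and Olfr56 rose by 3.55 ± 0.49, that of Igtp and Irgm2 by 2.89 ± 0.43, Gbp3 by 2.86 ± 0.43 and that of Tgtp2 and 9930111J21Rik2 by 3.51 ± 0.53, with adjusted p from 0.00209 to 0.00294. These 4 rows also passed when scaled to the HBC markers (adjusted p = 0.00757 to 0.0436). Several of these rows hold merged or near-identical genes. They were lowest in TNF replicate 1 among the TNF libraries, with summed levels of 925, 2169 and 2410 FPKM in TNF libraries 1, 3 and 4, against 130, 359 and 185 FPKM in control libraries 1, 2 and 4.

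**Figure D5:**
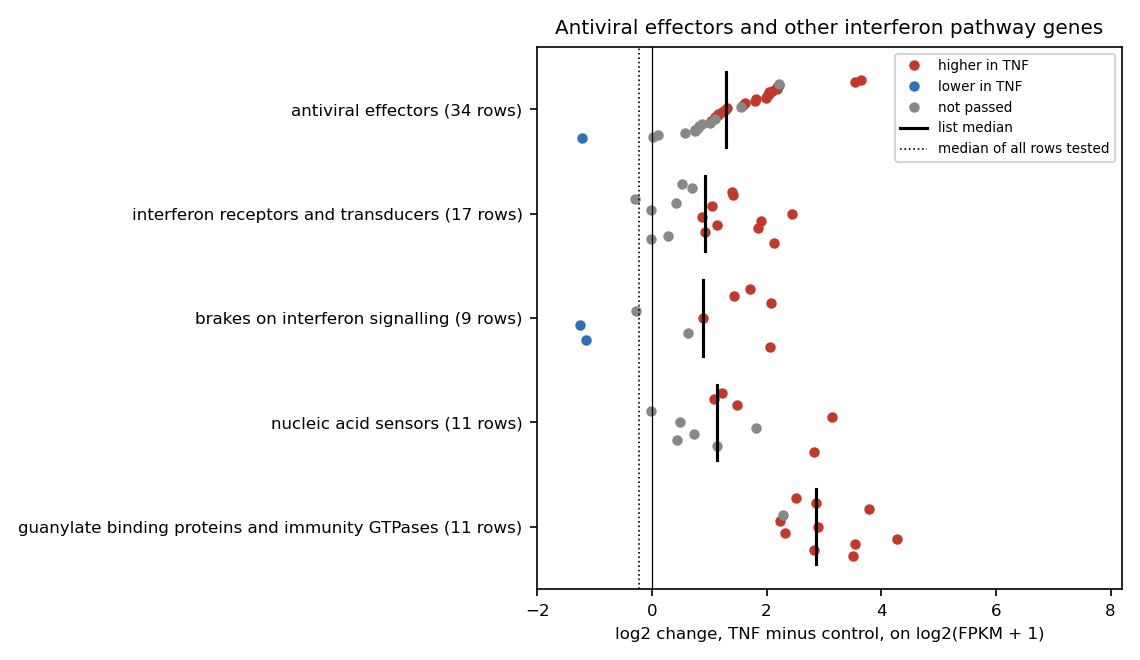
The log2 change, TNF minus control, of each tested row in the list of antiviral effectors and in 4 other interferon pathway lists, coloured by call, with a black bar at each list's median and a dotted line at the median of all rows tested. The medians are 1.29 for the effectors, 0.92 for receptors and transducers, 0.90 for brakes, 1.13 for nucleic acid sensors and 2.86 for the GTPases.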

How the data were processed

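The authors deposited 1 table of FPKM values for 6 bulk RNA libraries of sorted cells, per the file headers, with 0 columns of other samples. Its title speaks of raw counts, but 99.98% of values above 0 were not whole to within 1e-09, so no count model was used. Sorted cells went directly into lysis reagent and their amplified cDNA into Nextera libraries, per the labels' protocols. Tools named in the submitters' processing notes, with no role given, are TopHat2 2.1.1 and Cuffdiff 2.2.1, beside FastQC 0.10.1 and bcl2fastq, with build mm10. Settings and use of strand were not given in the sources used here. With depth unknown, no counting interval can be given.

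Starts in the table were counted from 0 and are given here from 1, after which 75.5% of 22908 uniquely named rows had the bounds of GENCODE M21. Of the 37 members, 10 have exons that overlap another gene, 5 are named by several rows and 3 lie in merged rows. Of 166 other listed genes, 1 was matched by another name and 1 is not used here.

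From the deposited FPKM, all rows that reached 1 FPKM in 3 or more libraries were fitted together with limma 3.58.1 in R 4.3.3 on log2(FPKM + 1), a pseudocount of 1, with an intensity trend, the group as the only term and Benjamini-Hochberg adjustment over all rows. The procedure was tested on simulated data. When a library was left out, the same rows were kept. Members, lists, motifs and tests were chosen with earlier results of these data known. All members were named, with up to 4 genes of each pathway list by smallest p, a fixed set of pathway genes, the 2 most abundant genes of each marker list, Krt5, Krt14, Trp63 and Tnf. One gene that this rule takes is not reported here. Siglech, Tlr9, Ccr9, Jchain, Cyp2g1, Sec14l3, Ermn and Fbln1 were named after their values were seen. Sequences are from RefSeq (GRCm38.p6).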

Additional observations from a re-analysis of the deposited data

How the results depend on the processing

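With a pseudocount of 0.1 the count of members higher was 22 and of members lower 1, where the deposited values gave 22 and 1. No filter gave 20 and 1 (36 rows tested), and a filter of 5 FPKM gave 20 and 1 (27 rows tested). Over all rows, these settings in turn gave 1570 of 15037, 1477 of 27442 and 1272 of 10724 rows higher. They gave 4017, 4665 and 2655 rows lower. Scaling to the HBC markers gave 2 and 1, and an adjusted p below 0.01 gave 12 and 0. Median-of-ratios scaling gave 0 members lower. Single omissions gave 14 to 25 members higher and 0 to 1 lower, and 938 to 2205 rows of the whole table higher and 2802 to 4946 lower. Of the 48 tested rows of the interferon pathway lists, they gave 20 to 33 higher. The rows higher were 938, 1017 and 1056 without TNF replicate 3, TNF replicate 4 and control replicate 1, where 1635 were higher with all libraries. Over all rows, quantile normalization gave 2658 higher, scaling to the HBC markers 248 higher and 7709 lower, an adjusted p below 0.01 787 and 2504, the filter of 5 FPKM 2655 lower, and the omission of TNF replicate 1 and control replicate 4 together 2835 higher. Of the 48 tested pathway rows, 9 were higher when scaled to the HBC markers, against 30 as deposited. Over the whole table the same counts were 248 and 1635 of 15037 rows.

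Replicate numbers 1 and 4 occur in both groups, and deviations of same-numbered libraries from their group means correlated at −0.0638 and −0.0874. The labels do not say what the number means. With so few libraries these values cannot tell whether same-numbered libraries shared a batch. With the replicate number as a block, 15 members rose and 0 fell, 744 rows of the whole table rose and 2246 fell. Replicate 2 occurs only among controls and replicate 3 only in the TNF group. That fit therefore compares the groups through replicates 1 and 4 alone.

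Scaled to the HBC markers, log2 changes became negative for Ifit1 (−0.11), the Ifit2 and Ifit3 row (−0.37), Oas1b (−0.16), Oasl1 (−0.37), Ifitm2 (−0.28), Rsad2 (−0.88), Adar (−0.12), Trim21 (−0.30), Ifi35 (−0.17), Ifi30 (−1.09), Ifnar1 (−0.70), Stat2 (−0.35), the Irf9 row (−0.13) and Ifih1 (−0.11). The cause was not tested. Over single omissions Rsad2 ranged from −0.29 to 0.24 and Ifi30 from −0.21 to 0.30, and without TNF replicate 1 and control replicate 4 Ifi30 was at −0.18. Of 23 called member rows, 13 kept their call in all 6 single omissions. With unknown depth, values below 1 FPKM (Oas2, Oas3 and part of Mx1 and Trim30a) may rest on few fragments.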
